A study of Homo sapiens with 72 samples.

Results

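Values of 10 genes of the NF-κB pathway were drawn from the 60371 Ensembl genes measured in 72 wells of U2OS cells, a human osteosarcoma line. The genes were chosen by name (NFKBIA, NFKBIB, NFKBIE, TNFAIP3, NFKB1, NFKB2, RELA, RELB, BIRC3 and TRAF1) and with results of these wells known: NFKBIA fell with triptolide and rose with homoharringtonine, and TRAF1 rose with 10000 nM nilotinib. The 3 triptolide doses, the 3 homoharringtonine doses and 10000 nM nilotinib, each against DMSO, therefore count as used by the choice, and the members are described there without a p-value. The same holds for the dose slopes of triptolide and homoharringtonine, which rest on the same wells. The other 11 comparisons with DMSO were not used, and there the test is given.

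NF-κB is a family of dimeric transcription factors. In resting cells the dimers are held in the cytoplasm by IκB proteins, and signals from receptors activate the IκB kinase, which marks IκB for destruction and frees the dimer to enter the nucleus. Several of the genes switched on by NF-κB encode proteins that switch it off again, including IκBα (NFKBIA), IκBε (NFKBIE) and the ubiquitin-editing enzyme A20 (TNFAIP3). NFKB1 and NFKB2 encode the precursors p105 and p100 of the subunits p50 and p52, RELA and RELB encode the subunits with activation domains, and NFKBIB encodes IκBβ. BIRC3 encodes the ubiquitin ligase cIAP2 and TRAF1 an adaptor protein of TNF receptors, and both are known NF-κB target genes.

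Population RNA-seq was made from wells of 24-well plates collected after 12 h. DMSO, the solvent, was given to 18 wells. Each of 6 compounds was given at 100, 1000 and 10000 nM, to 3 wells per dose. Triptolide blocks transcription through the XPB helicase of TFIIH, homoharringtonine blocks translation elongation, nilotinib inhibits ABL and other tyrosine kinases, Pyrazolanthrone is an inhibitor of the JNK kinases, MK-2206 inhibits the AKT kinases, and Miglitol inhibits intestinal α-glucosidases. All wells were of this 1 line, and no genotype differed between the groups. Nothing in the labels says that the wells came from separate cultures, so the p-values measure the spread between wells.

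The summed counts of 69 libraries ranged from 10514272 to 68296309, and 3 libraries were shallower. These shallow libraries were DMSO replicate 10 (460014 counts), triptolide 100 nM replicate 2 (70767 counts) and triptolide 1000 nM replicate 1 (9628355 counts). In DMSO wells the median TPM was 1868 for VIM, 452 for COL1A1 and 2137 for SPARC, markers of mesenchymal and bone matrix cells. COL1A2 was at 0.07 TPM. Among markers of other cell types, CD3E and ALB were at a median of 0, PTPRC at 0.04, PECAM1 at 0.11 and EPCAM at 2.38 TPM. In such bulk samples, fewer cells and less RNA per cell cannot be told apart.

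DMSO replicate 10 stood apart from the other 17 DMSO wells in 7 of the 10 genes, where it was the highest DMSO well. It held 15 BIRC3, 13 TRAF1, 23 TNFAIP3 and 38 RELB counts, which placed BIRC3 at 11.9 times, TRAF1 at 7.58 times, TNFAIP3 at 6.8 times and RELB at 4.52 times the median of the other DMSO wells. NFKBIE was at 2.78 times that median. NFKBIA (0.742 times), NFKBIB (0.918 times) and RELA (1.14 times) lay near or below the others. The values at an adjusted p under 0.05 in nilotinib, Pyrazolanthrone and MK-2206 are given with and without it.

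The RefSeq promoter table (GRCh38.p14) held 15 windows for 8 of the 10 genes, each from 250 bases before to 50 bases after an annotated start. The κB consensus GGGRNNYYCC, the 10-base motif bound by NF-κB dimers, was searched on both strands. In it R is A or G, Y is C or T and N is any base. Overlapping matches were counted separately. The consensus was present in 7 of the 15 windows, beside 11.3% of all 35116 windows. It was present in 6 of the 8 genes, beside 13.3% of the 27305 genes with a window. No window of RELA or TRAF1 held a match. One match or more per gene is printed to show where the consensus lies in the members' promoters, with 10 bases on each side, in the direction of the gene and with the motif in capitals. The NFKBIA, TNFAIP3 and BIRC3 matches hold the consensus on the opposite strand only, so their capitals are its reverse complement. Further matches in the NFKB2 and NFKBIB windows are not printed. The letters are a description only, and binding was not measured.
NFKBIA, chr14:35404811-35404840, minus strand: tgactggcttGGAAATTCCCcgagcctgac
TNFAIP3, chr6:137867182-137867211, plus strand: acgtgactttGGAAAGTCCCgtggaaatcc
TNFAIP3, chr6:137867194-137867223, plus strand: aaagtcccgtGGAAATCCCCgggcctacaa
NFKB1, chr4:102501300-102501329, plus strand: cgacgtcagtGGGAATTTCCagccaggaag
NFKB2, chr10:102394461-102394490, plus strand: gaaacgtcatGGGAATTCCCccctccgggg
NFKB2, chr10:102395674-102395703, plus strand: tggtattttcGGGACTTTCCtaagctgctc
NFKBIB, chr19:38899931-38899960, plus strand: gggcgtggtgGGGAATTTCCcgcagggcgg
BIRC3, chr11:102317275-102317304, plus strand: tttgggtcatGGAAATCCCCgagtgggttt
BIRC3, chr11:102317339-102317368, plus strand: tattaccgctGGAGTTCCCCtaagtcctaa

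The whole 250 bases before the start are printed for NFKBIA and BIRC3, since these stretches hold a match and overlap no annotated exon. Stretches of TRAF1 and NFKB2 that overlap no exon hold no match. NFKBIA and BIRC3 fell with triptolide and rose with homoharringtonine, and so did TRAF1, which has no match in its windows. Whether the motif goes with the response was not tested. In NFKBIA the first base of the motif lay 81 bases before the start, and in BIRC3 the motifs began 199 and 135 bases before it.
NFKBIA, chr14:35404750-35404999, minus strand: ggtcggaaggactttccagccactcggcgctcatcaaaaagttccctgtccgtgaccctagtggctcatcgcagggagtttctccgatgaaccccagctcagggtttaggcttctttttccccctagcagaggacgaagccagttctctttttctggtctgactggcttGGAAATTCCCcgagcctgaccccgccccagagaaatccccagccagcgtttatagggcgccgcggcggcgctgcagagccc
BIRC3, chr11:102317234-102317483, plus strand: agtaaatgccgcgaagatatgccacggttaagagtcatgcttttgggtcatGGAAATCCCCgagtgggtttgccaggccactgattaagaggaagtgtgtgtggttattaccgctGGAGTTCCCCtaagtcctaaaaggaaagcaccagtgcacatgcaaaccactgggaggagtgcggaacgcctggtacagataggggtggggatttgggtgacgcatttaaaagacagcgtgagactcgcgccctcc

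In DMSO wells the genes differed widely in level. Per transcript length, RELA was highest at a median of 81.4 TPM (67.3 to 128), and NFKB2 followed at 47.8 TPM (37 to 156), NFKBIA at 36.6 TPM (31.6 to 47.8) and NFKBIB at 34.8 TPM (29.4 to 48.6). NFKB1 was at 22.4 TPM, NFKBIE at 16.9 TPM and RELB at 13.3 TPM. The feedback gene TNFAIP3 and the targets TRAF1 and BIRC3 were lowest, at 2.33, 1.08 and 0.75 TPM. NFKBIA and NFKBIB were not separated, with NFKBIA the higher in 12 of 18 wells. TRAF1 exceeded BIRC3 in 14 of 18 wells, and every other gene exceeded the next in the order in 17 or 18 of 18 wells.

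Levels within a gene are given below as CPM, read counts divided by library size and expressed at a common depth, scaled by the trimmed mean of M-values, which sets the typical gene near no change, so a fold change says how a gene moved against the other genes. A gene was called in a comparison with DMSO when its adjusted p-value over all tested genes was under 0.05 and its log2 fold change was past 1 in either direction. All comparisons share the same 18 DMSO wells.

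**Figure D1:**
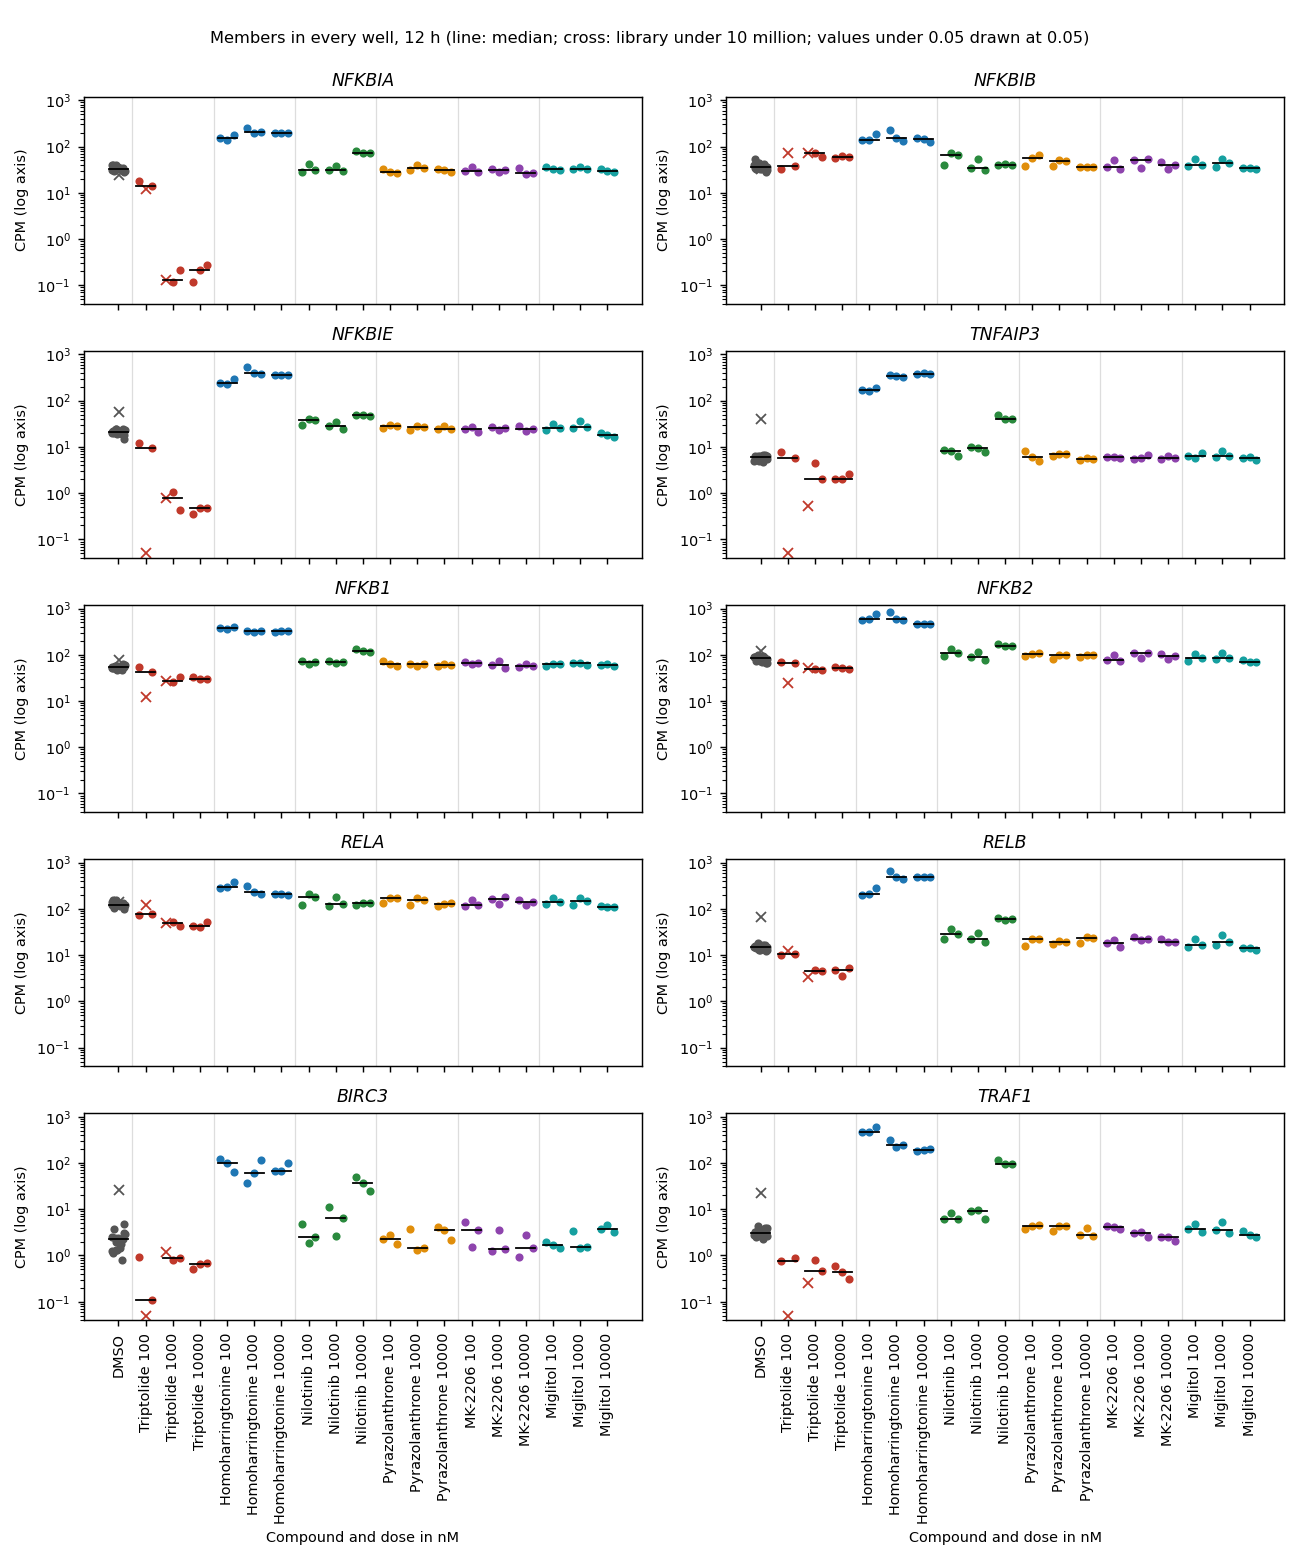
CPM on a log axis for each of the 10 genes in all 72 wells, grouped by compound and dose in nM, with each point a well, each line a group median, and crosses marking the 3 shallow libraries. Homoharringtonine wells lie above DMSO in every panel, triptolide wells at 1000 and 10000 nM lie far below for NFKBIA and NFKBIE, and the DMSO cross (replicate 10) lies above the other DMSO wells for 7 genes.

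With homoharringtonine, 10 of the 10 genes were called higher at 100 nM, 9 at 1000 nM and 9 at 10000 nM, beside 15.6%, 21.5% and 23.6% of all genes tested. The gene not called at the upper doses was RELA. The median log2 fold change of the 10 genes was 3.26, 3.68 and 3.29 at the 3 doses, beside -0.03, -0.01 and -0.05 over all genes. With triptolide, 4, 6 and 7 of the 10 genes were called lower at 100, 1000 and 10000 nM, beside 20.9%, 30.4% and 30.2% of all genes, and none was called higher, beside 11.4%, 13.9% and 16.2%. The median log2 fold change was -0.63, -1.43 and -1.69, beside -0.16, -0.21 and -0.17 over all genes. With 10000 nM nilotinib, 7 genes were called higher, beside 2.41% of all genes, with a median of 1.17 beside 0.01. Scaled to the 13 mitochondrial mRNAs the nilotinib count was 4. Without the shallow libraries, 3 genes rather than 4 were called lower at 100 nM triptolide (NFKBIA, BIRC3 and TRAF1), beside 19.6% of all genes. These counts come from comparisons used to choose the genes and support nothing about them.

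**Figure D2:**
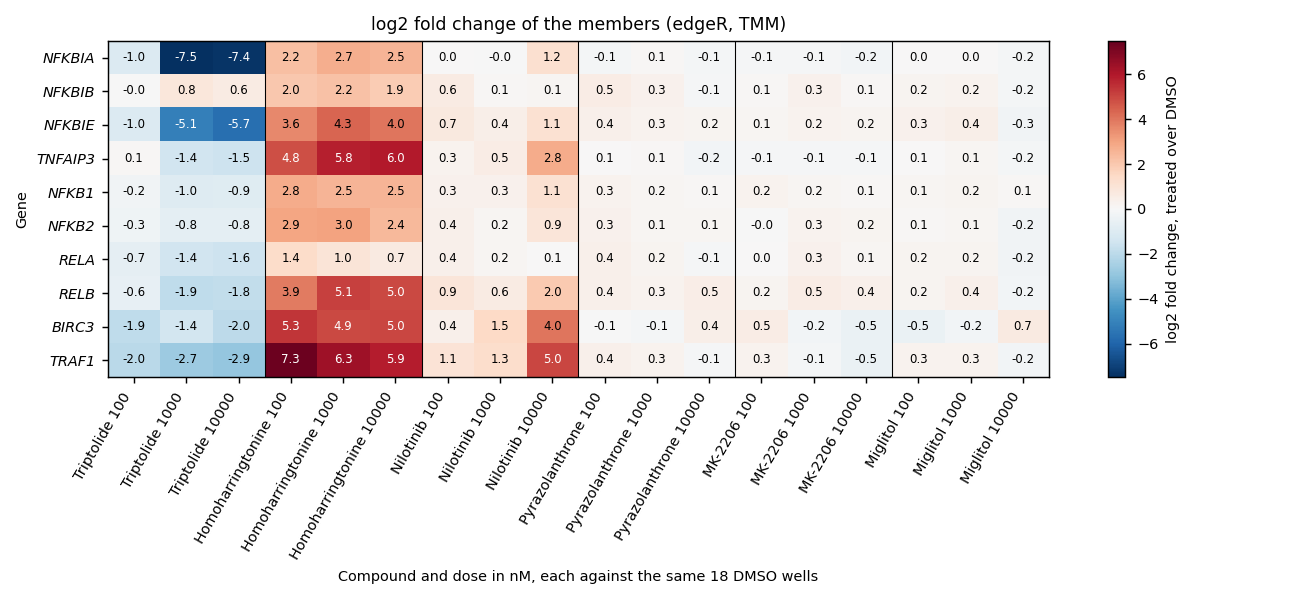
log2 fold change against DMSO for the 10 genes (rows) in the 18 compound and dose groups (columns), with red for higher and blue for lower and the value printed in each cell. The darkest cells are NFKBIA with 1000 and 10000 nM triptolide (-7.48 and -7.37) and TRAF1 with 100 nM homoharringtonine (7.33), and the Pyrazolanthrone, MK-2206 and Miglitol columns are pale.

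NFKBIA (chromosome 14, 35401079 to 35404749, minus strand, GRCh38) encodes IκBα, the inhibitor that is remade soonest after NF-κB activation. DMSO wells held between 24.5 and 40.8 CPM with a median of 32.9. The 3 triptolide wells held 18.1, 12 and 14.2 CPM at 100 nM, where the 12 rested on 1 count in the 70767-count library. At 1000 nM they held 0.129, 0.116 and 0.218 CPM, and at 10000 nM 0.119, 0.218 and 0.277 CPM. All 9 triptolide wells lay below all DMSO wells, and the loss was close to complete from 1000 nM. Summed over the 3 wells, 11 counts remained at 1000 nM and 16 at 10000 nM. The summed counts put the level 173-fold (95% exact Poisson interval 96.5 to 346, counting error only) and 161-fold (99.2 to 282) below the DMSO mean. With homoharringtonine the wells held 154, 139 and 174 CPM at 100 nM, 257, 199 and 209 at 1000 nM, and 201, 197 and 198 at 10000 nM, with no overlap with DMSO. Log2 fold changes were 2.24 ± 0.10 (SE), 2.73 ± 0.10 and 2.55 ± 0.09. Nilotinib at 10000 nM gave 81.8, 73.5 and 71.4 CPM, a log2 fold change of 1.19 ± 0.10, again above every DMSO well.

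NFKBIE (chromosome 6, 44258166 to 44265788) encodes IκBε, an inhibitor that is likewise induced by NF-κB, and it moved with NFKBIA in triptolide. Its DMSO wells held 14.9 to 57.8 CPM with a median of 21, and 24.6 was the highest without replicate 10. At 1000 nM triptolide the wells held 0.772, 1.05 and 0.437 CPM, and at 10000 nM 0.356, 0.472 and 0.475 CPM. These rested on 33 and 34 counts in all, and every one lay below the DMSO range. At 100 nM the wells with usable depth held 12 and 9.58 CPM, and the 70767-count library held none of its reads. With homoharringtonine the wells held 237, 234 and 297 CPM at 100 nM, 537, 405 and 379 at 1000 nM, and 365, 358 and 351 at 10000 nM. The log2 fold changes of 3.59 ± 0.14, 4.35 ± 0.15 and 4.03 ± 0.14 were larger than those of NFKBIA at each dose. In 10000 nM nilotinib the wells held 47.9, 48.9 and 46.2 CPM, above all DMSO wells but replicate 10.

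NFKBIB (chromosome 19, 38899700 to 38908893) encodes IκBβ, which is not known for rapid feedback, and its wells did not fall with triptolide under this scaling. The gene overlaps SIRT2 on the other strand, and whether the counting used strand is not given in the sources used here. DMSO wells ranged from 27.9 to 52.6 CPM with a median of 35.9. The triptolide wells held 73.1, 70.8 and 60.3 CPM at 1000 nM and 56.2, 61.5 and 58.5 at 10000 nM, all above DMSO. The log2 fold changes were 0.84 ± 0.14 and 0.59 ± 0.13, short of the limit of 1. This direction depends on the scaling: scaled to the 13 mitochondrial mRNAs they were -1.63 and -2.24, and scaled by library size 0.40 and 0.06. Homoharringtonine wells held 140, 138 and 188 CPM at 100 nM, 224, 156 and 132 at 1000 nM and 152, 145 and 128 at 10000 nM.

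Shares of the summed TPM of the 3 IκB mRNAs do not depend on scaling between wells. In DMSO they were 40.2% ± 3.17 (SD, n = 18) for NFKBIA, 39.6% ± 5.57 for NFKBIB and 20.2% ± 7.58 for NFKBIE. At 1000 nM triptolide NFKBIB made up 97.8% ± 1.51 (SD, n = 3) and at 10000 nM 98.4% ± 0.627, with no DMSO well over 46.3%. At 100 nM it ranged from 56% to 73.7%. Homoharringtonine moved the balance another way: NFKBIE made up 40.0% ± 1.08, 46.5% ± 0.667 and 45.1% ± 0.771 at the 3 doses. Among DMSO wells only replicate 10 reached such a share (49.2%), and the other 17 averaged 18.5% ± 2.37. In 10000 nM nilotinib NFKBIA held the largest share, 52.2% ± 1.23, above the DMSO maximum of 43.7%.

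The sum of the 3 IκB mRNAs over the sum of NFKB1, NFKB2, RELA and RELB mRNAs, again by TPM, had a median of 0.548 in DMSO (0.392 to 0.604). It was 0.88 (0.822 to 0.899) with 1000 nM and 0.792 (0.739 to 0.883) with 10000 nM triptolide, where nearly all of the numerator was NFKBIB. With 1000 and 10000 nM homoharringtonine it was 0.654 (0.64 to 0.669) and 0.644 (0.642 to 0.66), also above all DMSO wells. At 100 nM both compounds overlapped DMSO, at 0.536 (0.536 to 0.699) with triptolide and 0.578 (0.558 to 0.628) with homoharringtonine. With 10000 nM nilotinib it was 0.579 (0.574 to 0.59), within the DMSO range.

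**Figure D3:**
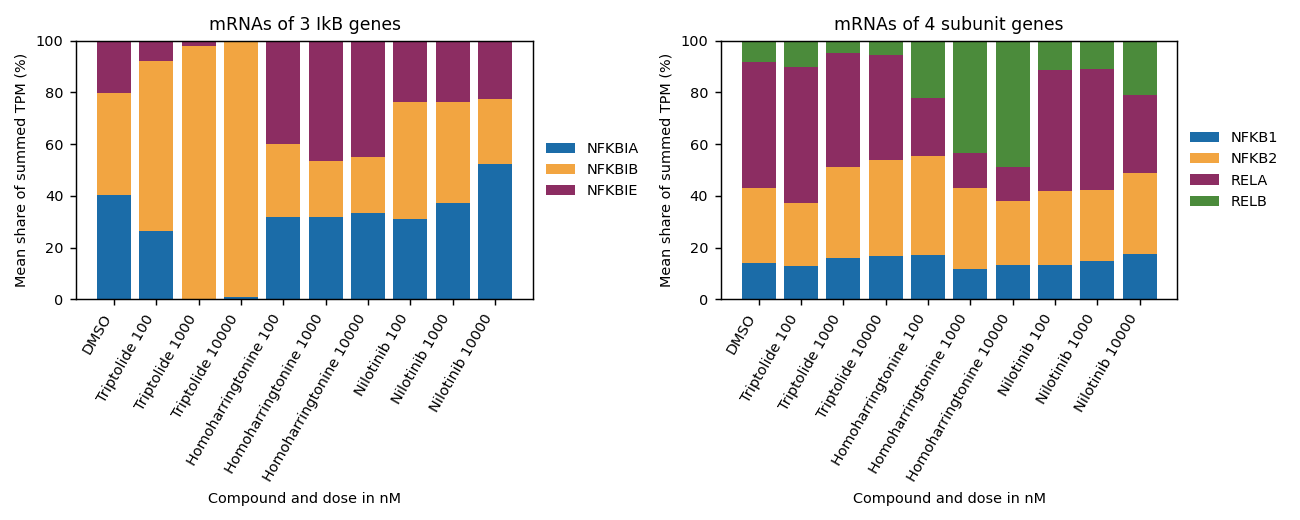
Mean share in percent of the summed TPM of the 3 IκB mRNAs (left) and of the 4 subunit mRNAs (right), for DMSO (18 wells) and each dose in nM of triptolide, homoharringtonine and nilotinib (3 wells each). NFKBIB fills nearly the whole bar at 1000 and 10000 nM triptolide (97.8% and 98.4%), and RELB reaches 48.7% of the subunit mRNAs at 10000 nM homoharringtonine.

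TNFAIP3 (chromosome 6, 137867214 to 137883314) encodes A20, which removes ubiquitin chains needed for IκB kinase activation. It overlaps the antisense gene WAKMAR2. DMSO wells held 4.83 to 40.3 CPM with a median of 6.07, and 6.81 was the highest without replicate 10. Homoharringtonine gave 174, 158 and 190 CPM at 100 nM, 360, 342 and 327 at 1000 nM, and 385, 394 and 374 at 10000 nM. The wells of the upper doses stood above those of 100 nM, and the log2 fold changes were 4.84 ± 0.20, 5.81 ± 0.20 and 5.95 ± 0.19. Nilotinib at 10000 nM gave 47.8, 40.4 and 40.9 CPM, 2.81 ± 0.23 on the log2 scale, and all 3 wells exceeded every DMSO well. Triptolide left 7.7 and 5.84 CPM at 100 nM in the wells with usable depth, 0.515, 4.53 and 2.04 at 1000 nM, and 2.02, 2.03 and 2.61 at 10000 nM. At 100 nM the log2 fold change was 0.11 ± 0.37 (-1.60 when scaled to mitochondrial mRNAs), and at the upper doses -1.43 ± 0.45 and -1.53 ± 0.35. Without the shallow libraries the value at 1000 nM was -0.95 ± 0.22, short of the limit of 1.

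Among the subunit genes, RELB (chromosome 19, 45001461 to 45038192), the partner of p52 in the alternative pathway, gained most with homoharringtonine. Its DMSO wells held 12.3 to 66.6 CPM with a median of 14.7 (at most 18 without replicate 10). The homoharringtonine wells held 196, 208 and 281 CPM at 100 nM, 664, 487 and 448 at 1000 nM and 500, 498 and 477 at 10000 nM. These wells gave log2 fold changes of 3.90 ± 0.19, 5.11 ± 0.19 and 4.97 ± 0.18. Triptolide brought RELB to 3.35, 4.65 and 4.47 CPM at 1000 nM and 4.86, 3.48 and 5.3 at 10000 nM, below all DMSO wells. In 10000 nM nilotinib the wells held 64.2, 58 and 60.5 CPM, 1.98 ± 0.21 on the log2 scale, above all DMSO wells but replicate 10.

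RELA (chromosome 11, 65653599 to 65663090) encodes p65, the main activating subunit, and overlaps the antisense gene RELA-DT. DMSO wells held 98.6 to 155 CPM with a median of 124. Homoharringtonine gave 282, 304 and 378 CPM at 100 nM, 317, 226 and 208 at 1000 nM and 206, 212 and 198 at 10000 nM. The log2 fold changes were 1.35 ± 0.11, 0.98 ± 0.12 and 0.66 ± 0.11, the smallest of the 10 genes at each dose, although no well overlapped DMSO. Triptolide wells fell from 73.3 and 78.7 CPM at 100 nM, with 120 in the 70767-count library, to 49.7, 51.4 and 41.8 at 1000 nM and 41.9, 40.5 and 51.6 at 10000 nM. Nilotinib at 10000 nM left RELA at 123, 136 and 135 CPM, inside the DMSO range.

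NFKB1 and NFKB2 (chromosome 4, 102501330 to 102617302, and chromosome 10, 102394110 to 102402524) moved alike. NFKB1 DMSO wells held 46.8 to 78.8 CPM (median 54.5) and homoharringtonine wells 314 to 396 CPM over the 3 doses. The NFKB1 log2 fold changes with homoharringtonine were 2.80 ± 0.08, 2.55 ± 0.08 and 2.52 ± 0.08. NFKB2 DMSO wells held 67.1 to 119 CPM (median 84.8) and homoharringtonine wells 453 to 845 CPM, with log2 fold changes of 2.93 ± 0.11, 3.01 ± 0.12 and 2.42 ± 0.11. At 10000 nM triptolide NFKB1 held 32.3, 29.9 and 29.2 CPM and NFKB2 53.9, 50.8 and 48.6 CPM, below all DMSO wells but short of the log2 limit of 1 (-0.90 ± 0.10 and -0.75 ± 0.14). This shortfall depends on the scaling: by library size they were -1.44 and -1.29, and scaled to mitochondrial mRNAs -3.68 and -3.56. Nilotinib at 10000 nM gave NFKB1 wells of 132, 120 and 113 CPM (1.14 ± 0.09) and NFKB2 wells of 169, 151 and 156 CPM (0.93 ± 0.12), above all DMSO wells.

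By TPM, RELA made up 48.4% ± 4.96 (SD, n = 18) of the 4 subunit mRNAs in DMSO and RELB 8.38% ± 1.53. With 10000 nM homoharringtonine RELA made up 13.1% ± 0.446 (n = 3) and RELB 48.7% ± 0.576, so that their order was the opposite. At 100 nM they were level, at 22.3% ± 0.256 and 22.2% ± 1.80, while NFKB2 held 38.5% ± 0.469. With 10000 nM nilotinib RELB reached 21.1% ± 0.373, above the DMSO maximum of 13%. With 10000 nM triptolide RELA held 40.9% ± 4.02 and RELB 5.44% ± 0.360.

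TRAF1 (chromosome 9, 120902393 to 120929173) had the largest log2 fold change of the 10 genes with 100 and 1000 nM homoharringtonine and with 10000 nM nilotinib, while TNFAIP3 had it with 10000 nM homoharringtonine. DMSO wells held 2.31 to 22.8 CPM with a median of 3.13, and 4.41 was the highest without replicate 10. Homoharringtonine gave 461, 465 and 608 CPM at 100 nM, 315, 222 and 246 at 1000 nM, and 179, 190 and 203 at 10000 nM. Fold changes on the log2 scale were 7.33 ± 0.18, 6.33 ± 0.20 and 5.86 ± 0.19, and each dose lay wholly below the one before it. Nilotinib at 10000 nM gave 117, 96.8 and 94.6 CPM, a log2 fold change of 5.0 ± 0.19. With triptolide TRAF1 held 0.593, 0.436 and 0.317 CPM at 10000 nM, from 35 counts in all, and no well overlapped DMSO.

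BIRC3 (chromosome 11, 102317484 to 102339403) encodes cIAP2 and overlaps an unnamed gene on the other strand. DMSO wells held 0.814 to 26.3 CPM with a median of 2.23 (at most 4.88 without replicate 10). Homoharringtonine gave 119, 99.7 and 63.8 CPM at 100 nM, 37.8, 61.4 and 115 at 1000 nM, and 66.4, 66.2 and 99.1 at 10000 nM. For BIRC3 the log2 fold changes were 5.35 ± 0.33, 4.93 ± 0.35 and 5.02 ± 0.33, and the doses overlapped each other. Nilotinib at 10000 nM gave 50.4, 36.7 and 25.1 CPM (4.0 ± 0.35), of which the last lay within the DMSO range only because of replicate 10. With triptolide the wells held 1.16, 0.814 and 0.874 CPM at 1000 nM and 0.514, 0.653 and 0.673 at 10000 nM, and at 1000 nM they overlapped DMSO.

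The 3 lowest-expressed genes in DMSO, TNFAIP3, TRAF1 and BIRC3, thus had the largest log2 fold changes with 100 and 10000 nM homoharringtonine and with 10000 nM nilotinib, while RELA and NFKBIB had the smallest in each. Without DMSO replicate 10 the nilotinib values were 2.88, 5.04 and 4.07 for the first 3 and 2.06 for RELB. With 1000 nM homoharringtonine RELB (5.11 ± 0.19) stood above BIRC3 (4.93 ± 0.35). At 10000 nM BIRC3 (5.02 ± 0.33) and RELB (4.97 ± 0.18) were not separated. These comparisons were used to choose the genes, so the order is a description.

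The change with dose was fitted over the 9 treated wells of a compound, as a slope on log10 dose, which uses no DMSO well. For triptolide and homoharringtonine these are wells used to choose the genes, so the slopes are given with their SE as a description and support nothing about the genes. With triptolide the slope of NFKBIA was -3.44 ± 0.44 on the log2 scale per 10-fold step in dose and that of NFKBIE -2.37 ± 0.30. Both slopes average unequal steps, since most of the fall lay between 100 and 1000 nM. Median CPM at 100, 1000 and 10000 nM was 14.2, 0.129 and 0.218 for NFKBIA and 9.58, 0.772 and 0.472 for NFKBIE. The slopes of TNFAIP3 (-0.82 ± 0.28), RELB (-0.63 ± 0.18) and RELA (-0.50 ± 0.12) were smaller, and those of NFKBIB (0.19 ± 0.17) and BIRC3 (-0.08 ± 0.37) lay near 0. At an adjusted p under 0.05, 17.8% of all genes fell with triptolide dose and 6.93% rose.

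With homoharringtonine the slope of TRAF1 was -0.74 ± 0.09 per 10-fold step in dose, and RELA (-0.35 ± 0.08), NFKB2 (-0.27 ± 0.10) and NFKB1 (-0.15 ± 0.05) also had negative slopes. TNFAIP3 (0.54 ± 0.09) and RELB (0.52 ± 0.15) had positive slopes, and NFKBIA (0.14 ± 0.08) and NFKBIE (0.21 ± 0.12) were nearer 0. Of all genes 22.9% fell with dose and 21.1% rose. The homoharringtonine slope was above the triptolide slope by 3.98 ± 0.41 for NFKBIA, 2.73 ± 0.31 for NFKBIE, 1.35 ± 0.26 for TNFAIP3 and 1.10 ± 0.23 for RELB. Over all genes 40.4% had a difference of slopes at an adjusted p under 0.05.

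**Figure D4:**
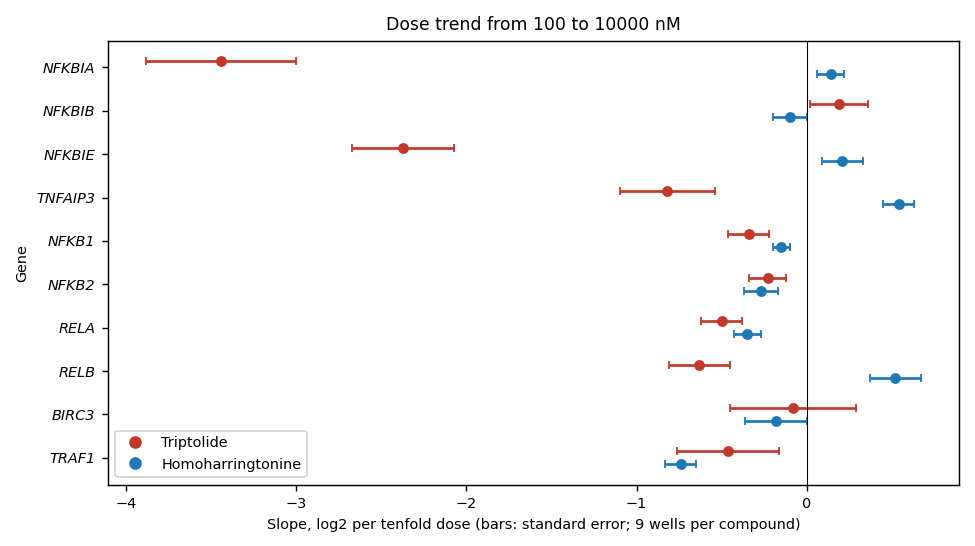
Slope in log2 per 10-fold step in dose from 100 to 10000 nM, with its standard error, for the 10 genes in triptolide (red) and homoharringtonine (blue) and 9 wells each. NFKBIA (-3.44) and NFKBIE (-2.37) lie far to the left in triptolide alone, and TNFAIP3 (0.54) and RELB (0.52) lie to the right of 0 in homoharringtonine.

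At the lower nilotinib doses, which the choice of genes did not use, TRAF1 was higher. Its wells held 6.26, 8.18 and 6.18 CPM at 100 nM and 9.35, 9.59 and 6.09 at 1000 nM, all above the 17 DMSO wells other than replicate 10 and all below that well. The log2 fold changes were 1.05 ± 0.28 (adjusted p = 0.021) and 1.34 ± 0.28 (adjusted p = 0.0048) by edgeR. It was the gene called higher at each dose, beside 0.702% of all genes at 100 nM and 0.745% at 1000 nM. Without replicate 10 the values were 1.12 (adjusted p = 6.7e-05) and 1.41 (adjusted p = 2.2e-05). Leaving out treated wells gave adjusted p-values up to 0.18 at 100 nM (without replicate 2) and up to 0.066 at 1000 nM (without replicate 1).

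Counting adjusted p under 0.05 at any size, 4 genes passed at 100 nM nilotinib, beside 9.08% of all genes. These were TRAF1, RELB (0.88 ± 0.25, adjusted p = 0.029), NFKBIE (0.71 ± 0.19, adjusted p = 0.017) and NFKBIB (0.64 ± 0.15, adjusted p = 0.011). Each of the 4 passed in 1 of the 3 fits that left out a replicate number, the one without replicate 1. At 1000 nM TRAF1 alone passed, beside 3.95%. Without DMSO replicate 10, 8 genes passed at 100 nM, beside 11.6% of all genes, and 6 at 1000 nM, beside 5.22%. The 6 were TRAF1, BIRC3 (1.60, adjusted p = 0.0073), RELB (0.70, adjusted p = 0.0012), TNFAIP3 (0.63, adjusted p = 0.0013), NFKBIE (0.49, adjusted p = 0.016) and NFKB1 (0.32, adjusted p = 0.0078). NFKBIA did not pass at either dose (0.01 ± 0.12, adjusted p = 0.98, and -0.02 ± 0.12, adjusted p = 0.97), nor without that well (adjusted p = 0.99 and 0.94).

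With Pyrazolanthrone, NFKBIB passed at 100 nM (0.53 ± 0.15 on the log2 scale, adjusted p = 0.039), beside 4.77% of all genes. Its wells held 38.6, 55.5 and 66.2 CPM, of which the first lay within the DMSO range, and without treated replicate 2 or 3 it did not pass (adjusted p up to 0.46). None of the 10 genes passed at 1000 nM, beside 0% of all genes, or at 10000 nM, beside 7.65%. By DESeq2 3 members had an adjusted p under 0.05 at 100 nM and none at either upper dose, and none had an unadjusted p under 0.05 at the upper doses in edgeR. Without DMSO replicate 10, 3 passed at 100 nM (NFKBIB, NFKBIE and RELB, beside 6.75% of all genes) and RELB alone at 10000 nM (0.56, adjusted p = 0.0013, beside 10.1%). That 1 of 10 members was near the share of all genes. The 10000 nM RELB wells held 18.6, 24.9 and 23.4 CPM, all above the 17 other DMSO wells. So were the RELB wells of 1000 and 10000 nM MK-2206 and of each nilotinib dose. The share of all genes with every treated well above those DMSO wells was not counted for any compound. Over dose, NFKBIB fell by 0.32 ± 0.09 per 10-fold step (adjusted p = 0.039), beside 18.6% of all genes with a slope, and it passed in 1 of the 3 fits that left out a replicate number.

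With MK-2206 no member passed at any dose in edgeR or DESeq2, beside 0.0648%, 1.52% and 3.07% of all genes at 100, 1000 and 10000 nM, and 1, 2 and 0 members had an unadjusted p under 0.05 in edgeR. Without DMSO replicate 10 RELB was higher at 1000 nM (0.59 ± 0.10, adjusted p = 0.0025, beside 2.03% of all genes) and at 10000 nM (0.47 ± 0.11, adjusted p = 0.011, beside 4.2%). Its wells held 24.4, 20.7 and 22.1 CPM and 22.8, 19.2 and 19 CPM, above the 17 other DMSO wells. No member had a dose slope that passed in edgeR, where 1 had an unadjusted p under 0.05, beside 0.028% of all genes, and TRAF1 passed in DESeq2 (-0.39, adjusted p = 0.018).

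With Miglitol no member passed at any dose in edgeR or DESeq2, beside 0% of all genes at each dose by edgeR, with 0, 2 and 1 members at an unadjusted p under 0.05 in edgeR. At an unadjusted p under 0.05, edgeR gave 944, 1563 and 4195 genes of all, and DESeq2 gave 1, 123 and 0 genes at an adjusted p under 0.05. BIRC3 rose with dose by 0.58 ± 0.14 per 10-fold step (adjusted p = 0.031), beside 15.9% of all genes with a slope. Its wells held 1.93, 1.69 and 1.46 CPM at 100 nM, 3.3, 1.44 and 1.53 at 1000 nM and 3.65, 4.65 and 3.26 at 10000 nM, all within the DMSO range. It did not pass when any 1 replicate number was left out (adjusted p 0.063 to 0.18). Without DMSO replicate 10 no member passed against DMSO at any Miglitol dose. In that edgeR fit RELB was at 0.30 ± 0.12, 0.50 ± 0.12 and -0.14 ± 0.11 (adjusted p = 0.7, 0.12 and 0.36). The 1000 nM value lay near those of RELB with 10000 nM MK-2206 (0.47) and 10000 nM Pyrazolanthrone (0.56). Of the 3 RELB wells at 1000 nM Miglitol, 2 lay above the 17 other DMSO wells.

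The mean length of the transcripts that RSEM assigned to a gene was not used to choose the genes. NFKB2 transcripts had a median length of 2710 bases in DMSO (1443 to 2776, the lowest in replicate 10). With homoharringtonine the 3 wells ranged from 2756 to 2834 bases at 100 nM, overlapping DMSO, from 2824 to 2866 at 1000 nM and from 2840 to 2873 at 10000 nM, both above all DMSO wells. With 10000 nM nilotinib they ranged from 2811 to 2869, also above. NFKBIB transcripts had a median of 1666 bases in DMSO (1623 to 1826) and were shorter with 1000 nM triptolide (1541 to 1586) and 10000 nM triptolide (1526 to 1617). No other tested member was outside the DMSO range in these 5 groups, where 5 members were tested with 1000 nM and 7 with 10000 nM triptolide and 10 in the others. Of all genes tested, 5.43% and 8.72% were outside the DMSO range with 1000 and 10000 nM homoharringtonine, 0.424% with 10000 nM nilotinib, and 5.15% and 7.57% with 1000 and 10000 nM triptolide. Without the shallow libraries 10 lengths rather than 5 lay outside over all groups, with a gene counted once in each group. The added ones were NFKB2 (longer), NFKBIB and RELA (shorter) with 100 nM triptolide, RELA (shorter) with 10000 nM triptolide and NFKB1 (shorter) with 100 nM Pyrazolanthrone. In that setting 12.4%, 9.77% and 1.55% of all genes were outside in these groups, and 100 nM triptolide had 2 wells. Which isoforms or ends account for the lengths was not tested.

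Of 65 other genes of the pathway, 64 could be paired with an identifier. They cover the other Rel and IκB proteins, the IκB kinase and its activators, other negative regulators, and target genes. With 10000 nM homoharringtonine 25 of 61 tested were called higher and 8 lower, beside 23.6% and 23.4% of all genes, with a median log2 fold change of 0.77 beside -0.05. Of the target genes 10 of 19 were higher and 4 lower, with a median of 2.27. Of the kinase and its activators 8 of 26 were higher and 3 lower, and of the negative regulators 5 of 12 higher and 1 lower. CXCL8, a chemokine for neutrophils, rose by 6.39 ± 0.23 (65.3 to 81.7 CPM against a DMSO median of 0.79). PTGS2, the inducible cyclooxygenase, rose by 6.35 ± 0.21 (220 to 230 against 2.63 CPM). TNF rose by 7.74 ± 0.36 from almost no reads in DMSO (3.02 to 3.96 against at most 0.0513 CPM), so that its size depends on the prior count. BCL2A1, CCL2 and MMP9 fell by 2.86, 2.41 and 1.68 on the log2 scale, so target genes did not move one way.

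With 10000 nM triptolide 28 of 59 genes were called lower and 4 higher, beside 30.2% and 16.2% of all genes, with a median of -0.75 beside -0.17. Scaled to mitochondrial mRNAs, which lowers the median of all genes by 2.76 on the log2 scale, 58 were lower and 0 higher. Of the kinase and its activators 13 of 26 were lower, and all 4 of the other Rel and IκB genes. IRF1, a transcription factor of interferon responses, fell by 6.56 ± 0.24, GADD45B, a stress-response gene, fell by 5.66 ± 0.25 and IER3, an immediate early gene, fell by 5.40 ± 0.22. MMP9, a matrix protease, rose by 1.94 ± 0.12, PLAU, the urokinase gene, by 1.40 ± 0.15 and IRAK1, a kinase of Toll-like receptor signalling, by 1.35 ± 0.10. At 100 and 1000 nM 17 and 27 of 59 genes were lower, beside 20.9% and 30.4% of all genes, and 6 and 3 were higher, beside 11.4% and 13.9%.

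With 10000 nM nilotinib 17 of 60 were called higher and 0 lower, beside 2.41% and 0.709% of all genes, with a median of 0.37 beside 0.01. Of these 17, 13 were among the 18 target genes tested (median 2.04), while 1 of 26 of the kinase and its activators was called. CXCL8 rose by 8.29 ± 0.23 (190 to 363 CPM) and CCL20, a chemokine for lymphocytes and dendritic cells, by 7.62 ± 0.23 (29.5 to 56.8 CPM against a DMSO median of 0.184). With homoharringtonine at 100 nM 22 of 60 were higher and 5 lower, beside 15.6% and 19.3% of all genes. At 1000 nM homoharringtonine 25 of 61 were higher and 6 lower, beside 21.5% and 20.9%. At an adjusted p under 0.05 of any size, 11 of 59 pathway genes passed with 100 nM nilotinib and 5 of 59 with 1000 nM, beside 9.08% and 3.95% of all genes. With the 3 Pyrazolanthrone doses 3, 0 and 6 of 59 passed, beside 4.77%, 0% and 7.65% of all genes. With the MK-2206 doses 1, 2 and 5 of 59 passed, beside 0.0648%, 1.52% and 3.07%, and with each Miglitol dose 0 of 59, beside 0%. At 10000 nM Pyrazolanthrone CCL20 (1.86 ± 0.37, adjusted p = 0.0019) and CXCL8 (1.16 ± 0.34, adjusted p = 0.034) were higher by edgeR. The CXCL8 wells (1.67 to 2.38 CPM) lay within the range of all 18 DMSO wells, replicate 10 included (0.359 to 7.01 CPM, median 0.79). At 10000 nM MK-2206 IER3 was higher (1.06 ± 0.12, adjusted p = 5.6e-06).

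**Figure D5:**
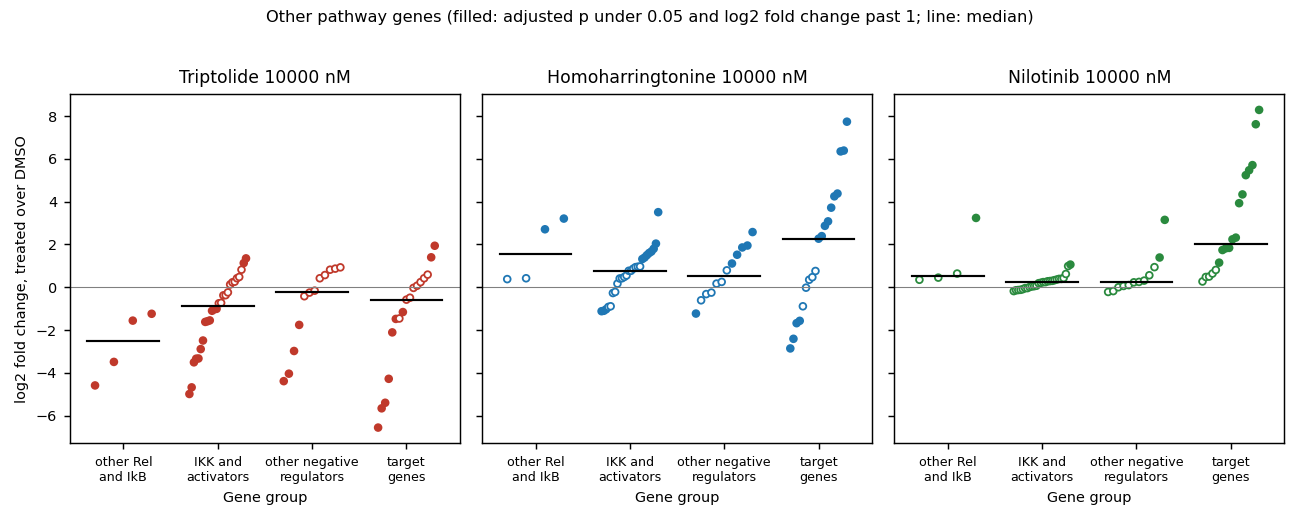
log2 fold change at 10000 nM against DMSO of the other pathway genes in 4 groups, for triptolide, homoharringtonine and nilotinib, with each point a gene, filled points called and lines at group medians. In nilotinib the target genes reach 8.29 (CXCL8) with a median of 2.04 while the kinase group has a median of 0.22, and in triptolide the lowest point is IRF1 (-6.56).

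Across the 19 groups the mean log2 CPM of TRAF1 was most like that of NFKB1 (Pearson r = 0.978), BIRC3 (0.978) and CYP1A1 (0.977), among 12646 other protein-coding genes. Without the shallow libraries the nearest were BIRC3 (0.979), NFKB1 (0.973) and HDAC9 (0.966). NFKBIA was most like FKBP15 (0.992), GCC1 (0.991) and EIF1B (0.99), and without the shallow libraries ZNF264 (0.992), FKBP15 (0.991) and DYRK3 (0.991). Among the members NFKBIB was least like NFKBIA (0.25), and NFKB1 and NFKB2 were most alike (0.99). The correlations are over group means that share libraries and scaling factors. They include the groups used to choose the genes, so they are a description and support nothing about them. Against DMSO, TRAF1 log2 fold changes ran from -2.91 to 7.33 in those groups and from -0.48 to 1.34 in the others.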

How the data were processed

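Per the labels and the study's methods, TruSeq poly(A) libraries were processed by the authors with a standard RSEM workflow on GRCh38. Expected counts, as deposited, estimate the reads of each gene without normalization and were rounded to whole numbers here. TPM, computed by the authors from transcript length and library, served to compare genes. The deposited transcript lengths are abundance-weighted means in bases. Deposited FPKM values were not used.

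Counts were fitted in R 4.3.3 with edgeR 4.0.16 (TMM, filterByExpr with a smallest count of 10, quasi-likelihood test, Benjamini-Hochberg adjustment over all genes). Standard errors (SE) were derived from the test statistic. Slopes on log10 dose used the 9 treated wells and the doses of the labels, although the study's methods print the middle dose with another unit in 1 place. CPM used TMM over all wells. Transcript lengths were compared where all 3 treated wells and at least 15 DMSO wells had 10 or more counts. Symbols and positions came from GENCODE 44.

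The members and gene lists were chosen with earlier results of these data known. Pathway genes are named as the 3 largest rises and falls at 10000 nM (2 for nilotinib, Pyrazolanthrone and MK-2206), and genes most like NFKBIA and TRAF1 by correlation over groups with a mean of at least 1 CPM. Scripts were tested on simulated data. No pair of wells of a group agreed within sampling noise. Alternatives were DESeq2 1.42.0, library sizes, scaling to 13 mitochondrial mRNAs, no filter, leaving out the 3 shallow libraries (sums under 10514272 counts), a replicate block and leaving out replicates.

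Replicate numbers did not pair wells: deviations of treated and DMSO wells correlated at a mean of -0.045 where the number was shared (52 pairs), and wells of 1 compound at different doses at 0.033 (50 pairs). Where it was not shared the means were 0.02 (104 pairs) and -0.022 (101 pairs). Single pairs ranged from -0.75 to 0.74 and from -0.85 to 0.85 with a shared number. Without one they ranged from -0.81 to 0.83 and from -0.84 to 0.73. The means therefore do not show that wells vary independently.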

Additional observations from a re-analysis of the deposited data

Results flagged for a closer look

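For 4 members the slope on dose differed between triptolide and homoharringtonine in a fit of the difference (edgeR, 18 treated wells). These wells were used to choose the genes, so the differences are a description and no independent support. The homoharringtonine slope was higher than the triptolide slope by 3.98 log2 per 10-fold step in dose for NFKBIA, by 2.73 for NFKBIE, by 1.35 for TNFAIP3 and by 1.10 for RELB. Over all genes 40.4% differed at an adjusted p under 0.05, so the count of 4 of 10 members was near the share of all genes. For NFKBIA and NFKBIE the triptolide wells at 1000 and 10000 nM held few counts (11 and 16, and 33 and 34, summed over 3 wells), so the size of their slopes is uncertain. Most of the fall of both genes over these doses lay between 100 and 1000 nM, so their slopes average unequal steps. No treated group has 4 to 10 wells, so single wells were not screened for outliers.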

How the results depend on the processing

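Counts over the 11 comparisons, and of transcript lengths, count a gene once for each comparison in which it passes. Shares of all genes under the other settings are not given beside the counts below. The counts therefore show how the reported values move and are no result about the genes. Of 1373 recomputed values of single members, 1217 kept their direction and their side of the threshold, 82 newly passed it, 71 lost it and 3 reversed. All 3 reversals came from scaling to the mitochondrial mRNAs: with triptolide NFKBIB became -1.63 at 1000 nM and -2.24 at 10000 nM, and TNFAIP3 -1.60 at 100 nM. That scaling lowered the median of all genes with triptolide by 1.66, 2.47 and 2.76 on the log2 scale at the 3 doses. It called 10 members lower at 100 nM and 10 at 1000 nM triptolide, 4 higher at 10000 nM nilotinib, and 5 in the 11 comparisons not used to choose the genes (2 as reported). It gave 8 members with a dose slope for triptolide, 1 for homoharringtonine, 4 for Pyrazolanthrone and 9 for Miglitol. The same scaling moved the median of all genes by 0.36, 0.33 and -0.48 at 100, 1000 and 10000 nM Miglitol. For Pyrazolanthrone it moved by 0.24, 0.34 and -0.37. The share of all genes with such a slope is not given, so these counts are no result about the members. Among pathway genes that scaling called 47, 57 and 58 lower and 0 higher at the 3 triptolide doses, and 21 passed in the 11 comparisons (33 as reported).

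With library sizes only, 1 member was called in the 11 comparisons, no slope passed for Pyrazolanthrone (0 members), and 3 and 1 pathway genes were higher at 100 and 10000 nM triptolide. DESeq2 gave 12 member values at an adjusted p under 0.05 in the 11 comparisons (6 as reported) and 6 pathway genes higher at 1000 nM triptolide. It gave 2, 3 and 1 members with a slope for Pyrazolanthrone, Miglitol and MK-2206. Without the 3 shallow libraries 20 member values passed in the 11 comparisons and 5 pathway genes were higher at 1000 nM triptolide. In that setting 10 transcript lengths lay outside the DMSO range (5 as reported). The cause of these changes was not tested.

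Leaving out 1 replicate number at a time gave 1 to 3 members lower at 100 nM triptolide (1 without replicate 3), 1 to 2 called and 1 to 8 passing in the 11 comparisons, 5 pathway genes higher at 1000 nM triptolide, 15 to 42 pathway genes in the 11 comparisons, and 5 to 8 transcript lengths. Members with a slope numbered 2 to 3 for triptolide, 2 to 5 for homoharringtonine, 0 to 2 for Pyrazolanthrone and 0 for Miglitol. The slopes of triptolide and homoharringtonine and their difference rest on wells used to choose the genes.

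With a replicate block, which uses DMSO replicates 1 to 3 only where DMSO enters, 1 member was called in the 11 comparisons (BIRC3 with 10000 nM Miglitol, 1.24 on the log2 scale, adjusted p = 0.0011) and the TRAF1 calls with 100 and 1000 nM nilotinib were lost (adjusted p = 0.77 and 0.69), 71 pathway genes passed there, 7 pathway genes were higher at 1000 nM triptolide, and 3 and 2 members had a slope for triptolide and Pyrazolanthrone. Replicate numbers did not pair the wells, so the block is given as a setting only. Depth limits NFKBIA and NFKBIE with triptolide, which rest on 11 to 34 counts per group at the upper doses, and all values of DMSO replicate 10 (13 to 79 counts per member).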
